A study of Mus musculus with 6 samples.

Results

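H3K56ac peaks were examined at 10 genes of the heat shock response and protein folding in V6.5 mouse embryonic stem cells (mESC). The genes were Hsp90aa1, Hsp90ab1, Hspa5, Hspa8, Hspa9, Hspd1, Hspe1, Hsph1, Dnajb1 and Hsf1, out of 21938 protein-coding genes. All merged peaks with a base in the gene body or in the 20 kb on either side were taken, and these were 18 of the 11106 peaks of the whole set. Hsp90aa1 was selected on the measured width of its peak, which ranks 3 among all peaks and the remaining 9 genes were listed by function with results of these data known. Widths and peak positions are therefore given as descriptions without a test.

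H3K56ac is an acetylation of lysine 56 in histone H3 that the deacetylase SIRT6 removes. Control cells (Scramble) expressed a scrambled shRNA and Sirt6 KD cells an shRNA that targets Sirt6, each brought in by lentivirus, and both were grown on feeder cells in medium with LIF. H3K56ac was immunoprecipitated from 2 Scramble and 2 Sirt6 KD samples, with 1 input DNA library for each condition. The study compared H3K56ac between Scramble and Sirt6 KD cells, but the deposited set merges the libraries into 1 list of positions, so no difference between the groups can be given for any gene here. The list holds no reads, peak heights or depth, its score is 0 for every peak, and nothing says which library a peak came from. Chromatin of feeder cells and of mESC cannot be told apart in it. All 6 pluripotency genes checked, Pou5f1, Sox2, Nanog, Klf4, Esrrb and Zfp42, had a peak at their start.

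Heat shock proteins are chaperones that bind unfolded proteins and help them fold, assemble or be degraded. HSP90 and HSP70 proteins do so with ATP, J proteins such as DNAJB1 hand clients to HSP70, and the chaperonin ring HSPD1 with its lid HSPE1 encloses clients in mitochondria. Their genes are induced by HSF1, which binds heat shock elements, while chaperones of the endoplasmic reticulum are induced by the unfolded protein response through ER stress elements. Several of them are also transcribed at high levels in unstressed cells.

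The sequences below carry the description of the promoters. They were read from GRCm38, the assembly behind mm10, and run 5′ to 3′ along the transcribed strand of the named gene. The first set shows the bases before the start of 3 genes that differ in their peaks: Hspa8 with the widest peak after Hsp90aa1, Dnajb1 with a peak that begins after its start, and Hspa5 without a peak. Capitals mark the CCAAT box (CCAAT) and the GC box (GGGCGG) on either strand, and neither a heat shock element nor a cAMP response element (CRE, TGACGTCA) lay in these stretches. They end at the principal TSS, the transcription start of the principal GENCODE transcript, or before the first annotated exon upstream of it. RefSeq places the starts of Hspa8 and Hspa5 292 and 120 bp farther downstream, so bases before those starts are missing from these stretches.
Hspa8, chr9:40800734-40800983, plus strand: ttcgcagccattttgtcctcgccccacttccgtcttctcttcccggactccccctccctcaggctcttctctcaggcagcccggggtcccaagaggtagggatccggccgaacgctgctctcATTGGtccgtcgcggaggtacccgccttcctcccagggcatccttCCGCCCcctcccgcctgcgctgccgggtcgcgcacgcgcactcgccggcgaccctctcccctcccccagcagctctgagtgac
Hspa5, chr2:34771720-34771969, plus strand: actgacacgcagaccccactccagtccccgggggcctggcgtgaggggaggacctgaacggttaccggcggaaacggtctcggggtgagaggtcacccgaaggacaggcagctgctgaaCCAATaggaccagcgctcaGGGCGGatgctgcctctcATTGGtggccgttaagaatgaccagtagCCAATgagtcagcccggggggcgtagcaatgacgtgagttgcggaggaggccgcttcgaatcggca
Dnajb1, chr8:83607943-83608174, plus strand: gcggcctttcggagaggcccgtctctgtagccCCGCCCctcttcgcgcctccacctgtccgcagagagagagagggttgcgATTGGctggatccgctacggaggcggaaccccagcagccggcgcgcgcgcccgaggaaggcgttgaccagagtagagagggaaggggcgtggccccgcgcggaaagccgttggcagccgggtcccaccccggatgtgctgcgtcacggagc

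The bidirectional promoter of Hsf1 and Bop1 is shown because both genes start inside 1 peak. It is printed on the strand of Hsf1, between the annotated first exons, with the same boxes in capitals.
Hsf1 and Bop1, chr15:76477278-76477361, plus strand: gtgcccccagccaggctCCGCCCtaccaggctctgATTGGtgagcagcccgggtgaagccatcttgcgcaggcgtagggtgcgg

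The next lines show heat shock elements found within 500 bp of a principal TSS, each in 30 bases. The element was written as 3 alternating GAA and TTC units with 2 bases between them, GAANNTTCNNGAA or TTCNNGAANNTTC, without mismatch, and is in capitals. The site between Hspd1 and Hspe1 holds 4 units and is shown on the Hspd1 strand.
Hspa8, first site, chr9:40801055-40801084, plus strand: gcgagcgtGAAAGTTCCAGAAcgccgcggt
Hspa8, next site, chr9:40801213-40801242, plus strand: cggcacccTTCTGGAAGGTTCtaagacagg
Hsph1, chr5:149636279-149636308, minus strand: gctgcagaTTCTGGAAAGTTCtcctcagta
Hspd1 and Hspe1, chr1:55088053-55088082, minus strand: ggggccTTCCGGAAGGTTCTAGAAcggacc

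The last pair are the only ER stress element and the only CRE found within 500 bp of the 10 principal TSS. The ER stress element is CCAAT and CCACG with 9 bases between them, and its first bases are also a CCAAT box.
Hspa5, ER stress element, chr2:34772020-34772049, plus strand: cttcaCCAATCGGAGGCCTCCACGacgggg
Hsp90ab1, CRE, chr17:45573376-45573405, minus strand: atctgctaccaTGACGTCAaggtgggcggg

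Peaks lay at the start of 8 of the 10 genes. A start peak had at least 1 base within 1 kb of any TSS of the gene, and of all protein-coding genes 35.7% had one. All 10 genes have a CpG-rich promoter, meaning an observed to expected CpG ratio over 0.6 in the 500 bp on either side of the principal TSS. Of all genes with such a promoter 60.3% had a start peak. Hspa5 and Hspa9 were the genes without a start peak. All 10 had a peak somewhere in the body or within 20 kb, which is how the peaks were selected, and 52.5% of all protein-coding genes had one.

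**Figure D1:**
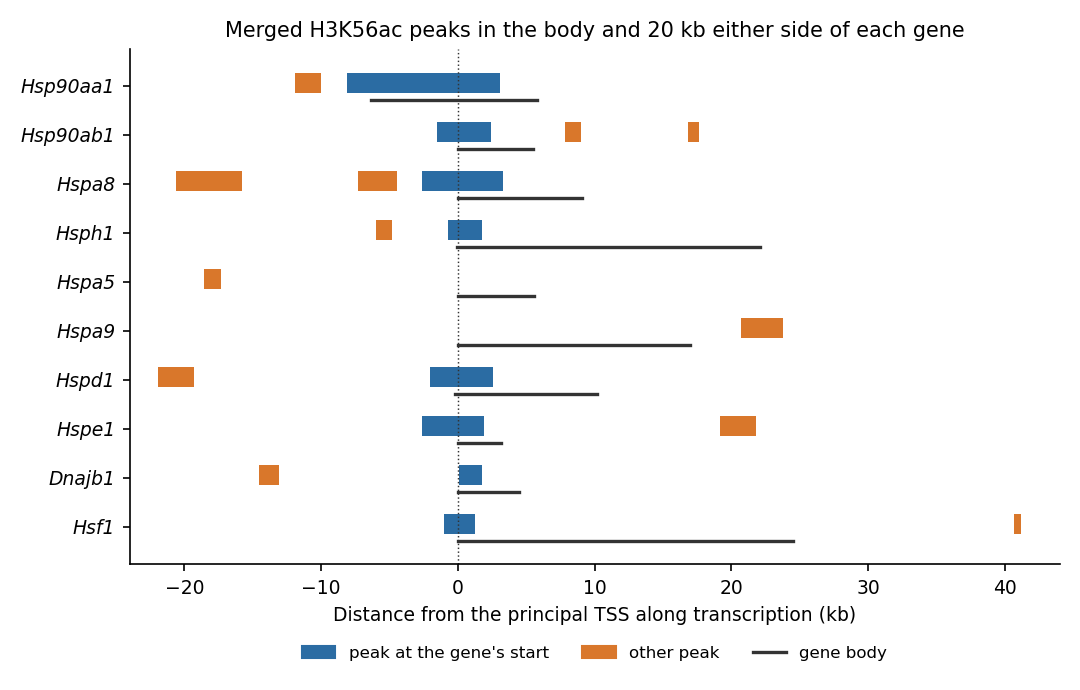
Merged H3K56ac peaks (bars) in the body and 20 kb on either side of each gene, plotted by distance in kb from the principal TSS in the direction of transcription, with the gene body as a dark line. The 8 genes with a blue bar have a peak at their start, the Hsp90aa1 bar is the longest with 11147 bp, and Hspa5 and Hspa9 have only an orange bar away from their start.

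The start peaks were wide. Over the 8 genes their width had a median of 4263 bp and ran from 1706 to 11147 bp, where Hspd1 and Hspe1 share 1 peak that is counted for each. Over the 7836 protein-coding genes with a start peak the median was 1348 bp, with quartiles at 765.0 and 2169 bp. All 8 genes lay above that median. Without Hsp90aa1, on whose width the list was chosen, the median was 3958 bp, which still counts the shared peak for both genes. With each peak once and without Hsp90aa1, widths ran from 1706 to 5960 bp. The middle ones were 2486 and 3958 bp, so the median then lies between these. Of the 8, 5 were at least 3 kb wide, namely Hsp90aa1, Hspa8, Hspd1, Hspe1 and Hsp90ab1, which compares with 9.39% of all genes with a start peak and 6.83% of all peaks. The plot of start peak widths shows these 5 in the right tail and Dnajb1, Hsf1 and Hsph1 inside the main body of the distribution.

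**Figure D2:**
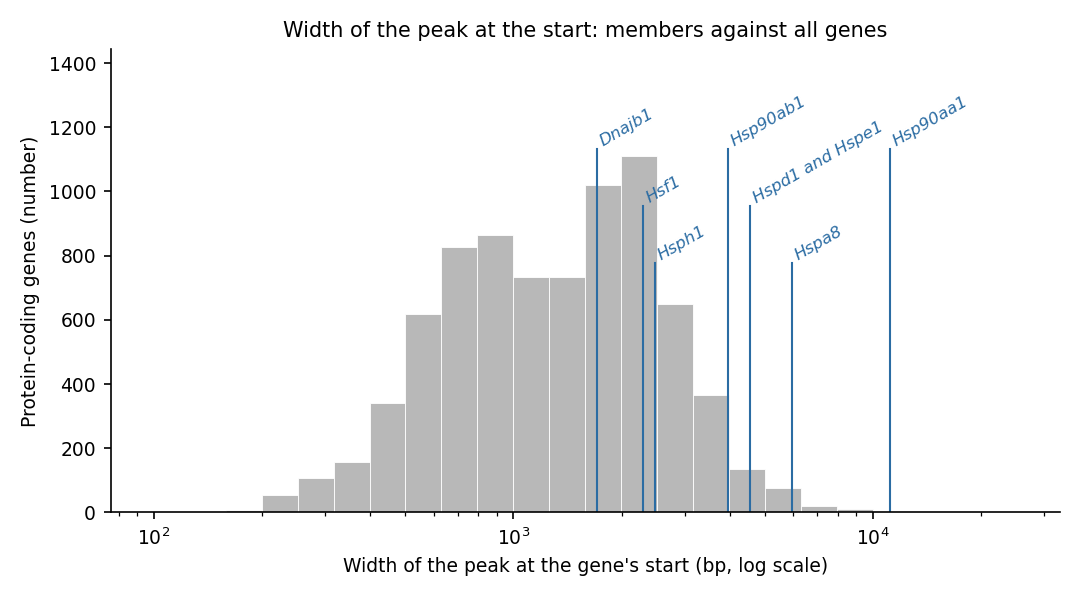
Histogram of the width in bp (log scale) of the start peak of 7836 protein-coding genes, with the genes described here marked by blue lines. Dnajb1, Hsf1 and Hsph1 lie at 1706, 2301 and 2486 bp, and Hsp90aa1 lies at the far right with 11147 bp.

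Hsp90aa1 encodes the stress-inducible cytosolic HSP90. Its start peak, chr12:110693330-110704476, was 11147 bp wide, 8.27 times the median start peak. It extended 8081 bp upstream and 3065 bp downstream of the principal TSS, and its midpoint lay 2508 bp upstream. No other start peak that contains a principal TSS extended as far upstream, out of 4335, but this reach is part of the width on which Hsp90aa1 was selected. Much of that upstream part lies inside the annotated gene, since a longer coding transcript with an incomplete end starts 6333 bp upstream of the principal TSS. Counted from this outermost start, the peak reached 1748 bp upstream. The peak contained 7 of the 8 annotated TSS, covered 77.5% of the gene body and held 60.2% of the coding bases, and it stopped 2725 bp before the end of the gene. A peak of 1862 bp lay 1953 bp beyond it on the upstream side and was the only other one within 20 kb. Neighbouring peaks of the deposited set are never closer than 1000 bp, so signals nearer than that would appear as 1 wide peak.

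Hsp90ab1, the constitutive cytosolic HSP90, is the close relative of Hsp90aa1 but had a start peak of 3958 bp, chr17:45570868-45574825, so that of Hsp90aa1 was 2.82 times as wide. The Hsp90ab1 peak ranked 284 by width, extended 1554 bp upstream and 2403 bp downstream of the TSS, and covered 43.7% of the gene body. The other peaks in its window both lay downstream, over the starts of Slc35b2, a transporter of the sulfate donor PAPS, with 1204 bp and of Nfkbie, an inhibitor of NF-kB, with 863 bp. Upstream, none was found within 20 kb.

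Among the HSP70 and HSP110 genes, Hspa8 had the widest start peak. Hspa8 encodes the constitutive cytosolic HSP70, and its peak of 5960 bp, chr9:40798345-40804304, ranked 69. It extended 2639 bp upstream and 3320 bp downstream, over 75.5% of the coding bases, and also held the starts of the small nucleolar RNA genes Snord14c and Snord14d, which lie within Hspa8 on the same strand. Upstream followed a peak of 2816 bp after a gap of 1837 bp and, after another 8513 bp, a peak of 4845 bp that ranked 153 and had its midpoint in an exon of Clmp, a cell adhesion gene. The 3 peaks together covered 13621 bp of a stretch of 23971 bp. Within 20 kb of the gene, Hspa8 had 12971 bp in peaks and Hsp90aa1 had 13009 bp, which placed them at ranks 54 and 53 of 21938 genes, while the median gene had 379.0 bp. For Hsp90aa1, 11147 bp of this is the peak on whose width it was selected, so its rank follows largely from that selection.

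Hsph1, the HSP110 protein that exchanges the nucleotide of HSP70, had a start peak of 2486 bp, chr5:149634566-149637051. It extended 713 bp upstream and 1772 bp downstream of the principal TSS and covered 8.20% of the gene body of 22090 bp. A peak of 1131 bp lay 4141 bp farther upstream, over the start of the lincRNA Gm20005.

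Hspa5, the HSP70 of the endoplasmic reticulum also known as BiP, had no peak in its body or within 1 kb of a TSS. The nearest peak edge lay 17304 bp upstream, and that peak of 1298 bp belongs to the start of Gapvd1, a gene of endosomal trafficking. The stretch without a peak around Hspa5 was 44284 bp long. Hspa9, the mitochondrial HSP70 or mortalin, also had none at its start. Its nearest peak was 3081 bp wide, lay over the start of Etf1, the translation termination factor eRF1, and began 3735 bp beyond the end of Hspa9, 20678 bp from its TSS. Upstream of Hspa9 the next peak was 66949 bp away. Because the study kept only reads with a single reportable location, the genome was searched for exact copies of every 75-base stretch around these starts. Within 1 kb of the principal TSS, 100% of the stretches of Hspa5 and of Hspa9 occurred once, and over all 10 genes the share was at least 98.5%.

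The mitochondrial chaperonin genes Hspd1 and Hspe1 share 1 peak of 4568 bp, chr1:55085480-55090047, at rank 184. They are transcribed in opposite directions from principal TSS that are 108 bp apart. From the point between these starts the peak reached 2598 bp towards Hspd1 and 1969 bp towards Hspe1. It covered 26.6% of the Hspd1 body and 60.3% of that of Hspe1, which at 3176 bp is the shortest of the 10 genes. A further peak of 2630 bp lay 17251 bp away on the Hspe1 side, contained no gene start, and had a low CpG ratio of 0.19, against 0.62 in the shared start peak.

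Dnajb1, a J protein that stimulates the ATPase of HSP70, had the narrowest start peak with 1706 bp, chr8:83608241-83609946. It was also the only one that missed the principal TSS: it began 48 bp downstream of it and ended 1753 bp downstream, so it lay in the gene body, of which it covered 38.2%. Another peak of 1458 bp lay upstream over the principal start of Tecr, an enzyme of fatty acid elongation. Tecr lies on the opposite strand and is annotated up to chr8:83607971, so an alternative start of Tecr lies next to that of Dnajb1. The peak of 1706 bp is within 1 kb of this alternative start, without containing it, and is thus a start peak of Tecr as well.

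Hsf1, the transcription factor that binds heat shock elements, had a start peak of 2301 bp, chr15:76476402-76478702. It shares this peak with Bop1, a gene of ribosome biogenesis transcribed in the opposite direction. Their principal TSS lie 168 bp apart. The peak extended 1043 bp upstream and 1257 bp downstream of the Hsf1 TSS and ranked 1619. The other peak in the Hsf1 window, 544 bp in an exon of the transcription factor gene Scrt1, was the narrowest of all 18.

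Start peaks that also contain a TSS of another protein-coding gene, here called shared, were found for 3 of the 8 genes, Hspd1, Hspe1 and Hsf1. Of all genes with a start peak 22.2% shared it in this way. Hspd1 and Hspe1 share with each other, so only Hsf1 shares with a gene outside the 10. The start peak contained the principal TSS of 7 genes, in 6 distinct peaks. For 5 of these genes it extended farther downstream than upstream, as it did for 65.4% of the 4335 genes with such a peak, and the exceptions were Hsp90aa1 and Hspe1. Hspd1 and Hspe1 are counted on opposite sides for the same peak because they point in opposite directions. Medians over these 4335 genes were 845.0 bp upstream and 1069 bp downstream. Hsph1 was the only gene of the 7 below the upstream median, and all 7 exceeded the downstream one.

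**Figure D3:**
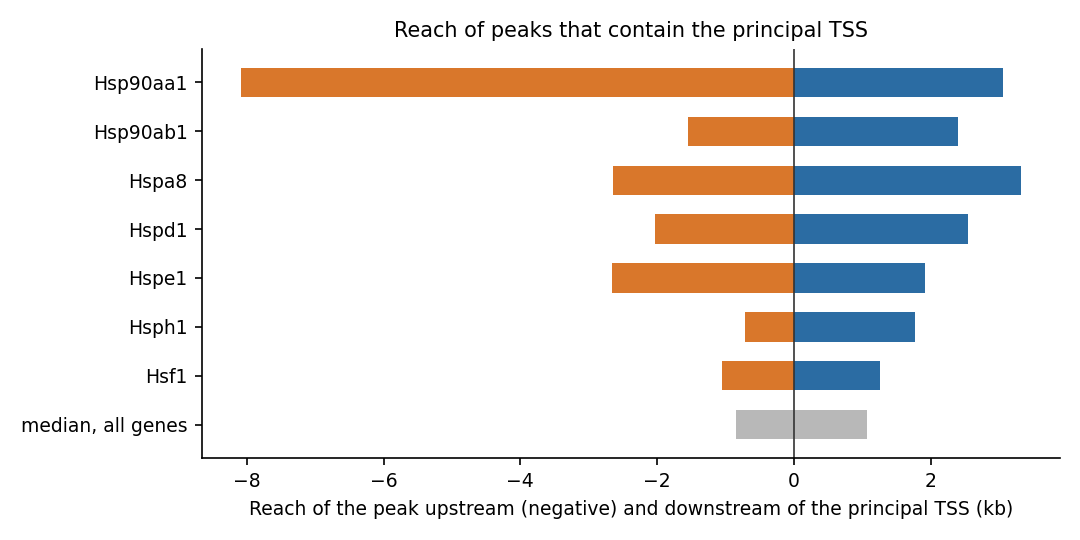
Reach in kb of start peaks upstream (negative, orange) and downstream (blue) of the principal TSS for the 7 genes whose peak contains it, with the medians over 4335 genes in grey. Hsp90aa1 reaches 8081 bp upstream, and the other 6 reach between 713 and 2652 bp.

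The 18 peaks comprised 7 start peaks and 11 others. Of the others, 5 lay over the start of a neighbouring protein-coding gene, Gapvd1, Tecr, Slc35b2, Nfkbie and Etf1, and 6 over none. The 11 had a median width of 1458 bp, between 544 and 4845 bp, and the median of all 11106 peaks was 913.5 bp. Nearest to the limit of 20 kb on the inside were the Gapvd1 peak at 17304 bp from Hspa5 and, for Hspd1, the peak of 2630 bp at 19056 bp, which lay 15992 bp from Hspe1. Peaks of 369 bp at 20802 bp from Hsf1, 1093 bp at 20978 bp from Hsp90ab1 and 1831 bp at 21404 bp from Hspa5 lay just outside.

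Heat shock elements of 3 units occurred in the 250 bp upstream of the principal TSS of 2 genes, Hspd1 and Hspe1, which share 1 site, against 0.360% of all protein-coding genes. Within 500 bp on either side, 5 of the 10 genes held one, Hsp90aa1, Hspa8, Hsph1, Hspd1 and Hspe1, against 1.63% of all genes. Positions are counted from 0 at the principal TSS. The Hsp90aa1 element spans it from -4 to 8. The Hspa8 elements begin at 79 and 237, and the Hsph1 element at 38. RefSeq places the start of Hspa8 292 bp farther downstream, and from there the Hspa8 elements begin at -213 and -55. For Hsph1 the RefSeq start lies at -160 from the principal TSS, which puts its element at 198. For Hspd1 the RefSeq start lies at -219, which puts the shared element at 167, while from that of Hspe1 it begins at -89. Counted from RefSeq starts, the shared element thus lies upstream of Hspe1 but not of Hspd1, and the Hspa8 elements lie upstream.

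The element between Hspd1 and Hspe1 has 4 units and begins at -52 from Hspd1 and at -73 from Hspe1. Only 12 of 21938 genes held 4 units within 500 bp, or 0.0547%, and both chaperonin genes are among them. Of the others, named after their values were seen, Ppid and Chordc1 encode HSP90 partners, while Kctd18, Arpc2, Klhl8, Mgmt, Fam149a, Fbxw15, Syne3 and Dact2 are not in the chaperone list. The 7 start peaks held 6 elements in 32126 bp, a density of 187 per Mb, counting the overlapping 3-unit matches of the shared site separately. All peaks together held 19.8 per Mb, and peaks of at least 3 kb held 21.3 per Mb. The 11 other peaks near the 10 genes held 0 in 21732 bp, too short a stretch to read as a lack of elements. These densities come from the reference sequence and do not measure binding of HSF1.

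**Figure D4:**
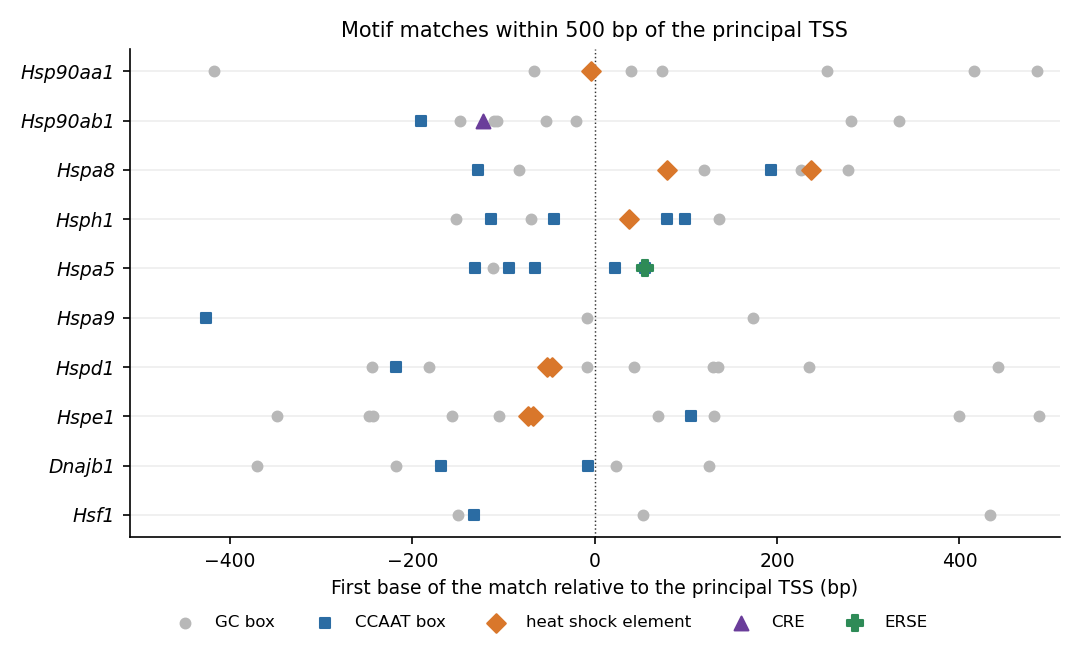
Position in bp relative to the principal TSS of motif matches within 500 bp of it, 1 line per gene, with negative positions upstream. Heat shock elements (orange diamonds) are present at Hsp90aa1, Hspa8, Hsph1, Hspd1 and Hspe1, the ER stress element (ERSE) at Hspa5 and the CRE at Hsp90ab1 only.

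The genes without a heat shock element differed in their other boxes. Hspa5 held the ER stress element, which 0.169% of all genes had within 500 bp, beginning at 55 from the principal TSS or at -65 from the RefSeq start. Hsp90ab1 held a CRE at -123, an element that 2.06% of genes had in the 250 bp upstream. Hspa9, Dnajb1 and Hsf1 held none of these 3 elements within 500 bp. GC boxes were found in the 250 bp upstream of all 10 genes, against 41.6% of all genes and 66.5% of those with a CpG-rich promoter. CCAAT boxes were found upstream of 7 of the 10, against 35.6% of all genes.

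Reads that match more than 1 place are dropped by the alignment, and some heat shock genes have processed copies elsewhere in the genome. In Hsp90aa1, 37.1% of the 75-base stretches within exons of the principal transcript occurred once in the genome. In Hspa8 these were 518 of 1728 stretches, and for Hspd1 the share was 59.5%. Over whole start peaks it was 94.2% for Hsp90aa1 and 84.9% for Hspa8. Both peaks thus span exons in which few single-location reads can be placed, and the part of this in the positions of their edges was not tested.

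A wider list of 111 chaperone and heat shock genes, which contains the 10, had a start peak at 76 genes or 68.5%. The 101 other genes had one at 68, or 67.3%, with a median width of 1965 bp. Of the 92 genes of the list with a CpG-rich promoter 68 had one. The list too was drawn up with results of these data known. J proteins had a start peak at 16 of 18 genes, with Dnajb4 at 3711 bp and Dnajc14 at 3277 bp the widest, and Dnaja3 and Dnaja4 without one. The Dnajb4 peak lay at an alternative TSS, as no peak edge was nearer than 14949 bp to its principal TSS. Cytosolic HSP90 and its partners had one at 10 of 12, without it at Ahsa1 and Stip1, which regulate the HSP90 cycle. Among the 10, that of Fkbp5 also lay at an alternative TSS, with no peak edge nearer than 13278 bp to the principal TSS. Mitochondrial chaperones also had one at 10 of 12, with Hspa9 and the disaggregase gene Clpb as the exceptions.

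Cofactors of HSP70 had a start peak at 7 of 9 genes, the widest at St13 with 3274 bp and at the ubiquitin ligase gene Stub1 with 2909 bp, and none at Bag2 and Hspbp1. The cytosolic chaperonin TRiC and prefoldin, which fold actin and tubulin, had one at 10 of 13, led by Tcp1 with 3603 bp and Cct5 with 3067 bp, and Cct3, Cct7 and Vbp1 lacked one. In the endoplasmic reticulum 11 of 17 genes had one. Calr and Canx, the lectin chaperones calreticulin and calnexin, had peaks of 3277 and 3031 bp, while Dnajb9, Dnajc3, Hsp90b1, Hspa5, Pdia3 and Sdf2l1 had none. All 17 have a CpG-rich promoter, so the share of 64.7% stands beside the 60.3% of all genes with such a promoter.

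HSP70 and HSP110 genes had a start peak at 4 of 9. After Hspa8 the widest was that of Hspa4, an HSP110 gene, with 3667 bp, and the heat-inducible Hspa1a and Hspa1b as well as Hspa1l, Hspa2 and Hspa4l had none. Hspa1a and Hspa1b are near-identical copies: only 54.5% of the 75-base stretches within 1 kb of their TSS occurred once in the genome, so reads from these genes are in part lost, and a missing peak there is uncertain. For Hspa1l the share was 82.5%. In all, 7 of the 111 genes had a share under 90%. Small heat shock proteins, of which 1 of 9 has a CpG-rich promoter, had a start peak at 4 of 9, with Hspb8 at 2019 bp and Hspb6 at 1671 bp, and none at Cryaa, Cryab, Hspb2, Hspb3 and Hspb7. The group of heat shock factors and regulators, with 10 CpG-rich promoters, had one at 4 of 12, with Atf6 at 2668 bp ahead of Hsf1. Atf4, Eif2ak3, Ern1, Hsbp1, Hsbp1l1 and Hsf3 were among those without. This group also holds genes of the unfolded protein response, namely Atf6, Xbp1, Atf4, Ern1 and Eif2ak3, of which Atf6 and Xbp1 had a start peak. Its share is therefore not that of heat shock factors alone.

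**Figure D5:**
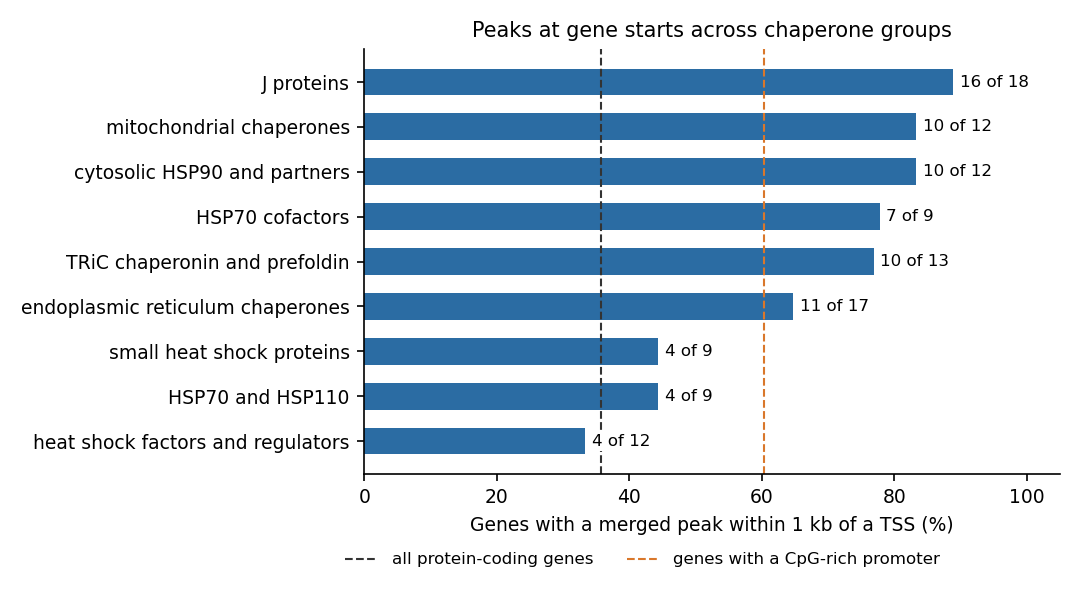
Share in % of genes with a merged peak within 1 kb of a TSS in 9 groups of the wider list, with the number of genes at each bar. The dashed lines mark all protein-coding genes (35.7%) and genes with a CpG-rich promoter (60.3%). J proteins reach 88.9%, while heat shock factors and regulators, a group that includes genes of the unfolded protein response, reach 33.3%.

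Heat shock elements of 3 units lay within 500 bp of the principal TSS of 16 of the 111 genes, or 14.4%, against 1.63% of all protein-coding genes. Of the 16, 12 had a start peak. This stands beside 68.5% of the whole list and 68 of its 92 genes with a CpG-rich promoter. Besides the 5 described above, the 16 were Ppid, St13, Dnaja1, Dnajb6, Tcp1, Cct4 and Cct8 with a start peak, and Stip1, Bag2, Hsp90b1 and Hsbp1l1 without. Over all protein-coding genes, 358 held such an element and 36.0% of these had a start peak, close to the 35.7% of all genes.

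For scale, 2 other groups of housekeeping genes were measured in the same way. Proteasome subunit genes had a start peak at 35 of 39, with a median width of 1414 bp and 1 of at least 3 kb. Cytosolic ribosomal protein genes had one at 69 of 79, with a median of 2947 bp and 34 of at least 3 kb. Start peaks of at least 3 kb thus made up 49.3% in ribosomal protein genes and 2.86% in proteasome genes. Among the 10 genes they made up 62.5%, or 57.1% (4 of 7) without Hsp90aa1, which was chosen for its width. Over distinct peaks, those of at least 3 kb were also 4 of 7. The former share still counts the peak of Hspd1 and Hspe1 for each gene, and the latter still includes Hsp90aa1. Neither share is thus free of both limits when set beside the ribosomal protein genes. With each peak counted once and Hsp90aa1 left out, the peaks of Hspa8, of Hspd1 with Hspe1, and of Hsp90ab1 were at least 3 kb wide. Equally many, those of Hsph1, Hsf1 and Dnajb1, were narrower, which is close to the 49.3% of ribosomal protein genes.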

How the data were processed

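H3K56ac ChIP-seq was performed in Scramble and Sirt6 KD V6.5 mESC, with groups taken from the sample titles. Per the study's methods, the authors trimmed single-end reads (75 bases in the methods, slightly longer in the study's reporting form), aligned them to mm10 with Bowtie keeping those with a single reportable location, removed duplicates, called peaks with MACS2 and merged overlapping peaks of the libraries. The deposited file holds start and end positions and a score that is 0 throughout, so it shows neither depth nor precision per library. Read numbers per library are stated by the study and were not used here. The authors' counts per peak are not analysed here.

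Positions are printed counted from 1 on mm10 (GRCm38). Genes and TSS were those of GENCODE M21, and RefSeq starts served as an alternative. Motifs were searched on both strands without mismatch, and 75-base stretches were compared as exact copies on both strands of the assembled chromosomes. The interval, motif and copy searches were tested on simulated data: 200 of 200 planted start peaks and 200 of 200 planted heat shock elements were found. Python 3.11.15, numpy 2.4.6, scipy 1.17.1 and matplotlib 3.10.9 were used. No test was run, because the members, the wider list, the groups for scale and the motifs were chosen with earlier results of these data known.

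Genes were named by rule: the 10 genes, genes starting in their start peaks, protein-coding genes nearest to a peak in the windows and, per group of the wider list, the 2 widest start peaks and the first 6 genes without one. Of 113 listed symbols 111 matched 1 protein-coding gene. Other genes holding heat shock elements, the pluripotency genes and just-outside peaks were added after the values were seen. The promoter sequence of Hsp90aa1 is not reported here.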

Additional observations from a re-analysis of the deposited data

How the results depend on the processing

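Of 24 alternatives over 7 results, 20 left the value within its limits. For counts these were 1.5 times. The median width was 4263 bp with the peak of the nearest midpoint, 4568 bp with the peak containing the principal TSS and 3958 bp with each distinct peak once or, separately, without Hsp90aa1. Its 95% order-statistic interval of 1706 to 11147 bp is the whole range of the 8 values, so these alternatives could not leave it and are no sign of stability. Within 50 kb instead of 20 kb, 33 peaks were counted. With 2 units instead of 3, 4 genes had a heat shock element upstream, against 11.9% of all genes. With 3 units but within 500 bp on either side, 5 genes had one, against 1.63% of all genes. At a minimum of 5 kb, 2 start peaks counted as wide, against 1.47% of all genes with a start peak. They were those of Hspa8 and of Hsp90aa1, which was chosen for its width. Chosen after seeing the data were the RefSeq starts, with which 8 genes again had a start peak, the median without Hsp90aa1, the window on either side and the list without the 10 genes. A stricter score was not possible, as it is constant, so peaks above the median width were used. No paired analysis was possible because positions carry no value per library and no result comes from a test. Leaving out a replicate was not possible for the same reason, and what a missing peak means is limited because positions carry no depth.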
